A study of Homo sapiens with 4 samples.

Results

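Isoform usage and its location were examined in 8 human genes, SPATA7, SIL1, CCDC144NL-AS1, PMEL, CUL4B, ADGRL3, LRRC49 and TBC1D31, in naïve and primed hESCs. The 8 genes were chosen because earlier results of these libraries had shown a strong change in isoform usage between the states. Their values between the states are therefore described only. Calls of their isoforms mark which ones passed set thresholds and are not evidence of a change. They are 8 of 62218 genes with counted isoforms, and 181 of the 244825 isoforms counted belong to them. All 181 isoforms passed the filter of at least 10 counts in at least 2 libraries.

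The study generated Nanopore cDNA libraries as part of a benchmark of methods that detect mRNA isoforms. Their long reads can span whole transcripts, though the paper treats read completeness as variable. Primed hESCs were cells of the human embryonic stem cell line H1, wild type, grown in mTeSR1 on Matrigel and collected at 60 to 70% confluency. Naïve hESCs were derived from H1 cells in FINE medium, which holds the kinase inhibitors dasatinib, AZD5438, SB590885, PD0325901 and Y-27632 with LIF, activin A and bFGF, and were collected at 50% confluency in low oxygen. Each state had 2 libraries, all from the single line H1, and nothing states that the replicates came from separate derivations, so the spread between them may be technical. Medium, oxygen and confluency changed together with the state and cannot be told apart from it. The total per library lay between 129276054 and 161548901 counts.

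The genes have no shared pathway. CUL4B is a scaffold of the cullin-RING ubiquitin ligases that carry DDB1, and SIL1 is the nucleotide exchange factor of the endoplasmic reticulum HSP70 chaperone HSPA5. PMEL forms the amyloid fibrils of melanosomes. SPATA7 is a protein of the photoreceptor connecting cilium, TBC1D31 is a protein of centriolar satellites, and LRRC49 is a subunit of the tubulin polyglutamylase complex. ADGRL3 is the adhesion receptor latrophilin 3, which binds FLRT and teneurin proteins, and CCDC144NL-AS1 is a long non-coding RNA. An isoform can differ from others of its gene in its first exon, its last exon or its splicing, so that 1 locus can give different transcripts in different cell states.

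The deposited value of an isoform is the number of alignments that touch any base between its start and end on GRCh38, introns included and strand ignored. An alignment counts for every isoform it touches, and also for a neighbouring gene in the same place. A count therefore belongs to a stretch of genome, not to a molecule. Where the span of 1 isoform encloses another, the difference of the counts is the number of alignments that touch the outer span and miss the inner one. These differences were used to find where in each gene the states differed. Levels are given as CPM, the count scaled to a common library size, with the library size adjusted by TMM normalization. The TMM factors were 0.779 and 0.824 in the naïve libraries against 1.25 and 1.24 in primed hESCs, and the median gene differed by 0.08 (log2, primed over naïve) after TMM against 0.72 with plain library size. A share within a gene does not depend on this choice.

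The label of long genes held in part. The annotated spans ran from 19213 bases in PMEL to 878010 bases in ADGRL3. The median was 36957 bases over the 17329 annotated genes whose symbol matched that of a gene tested for isoform usage. PMEL was longer than or as long as only 31.7% of those genes, and the other 7 lay between the 73.1 and 99.3 percentiles.

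An isoform was called when its edgeR adjusted p was under 0.05 and its isoform fraction, the part of the gene's length-corrected counts, changed by more than 0.1 (dIF, primed minus naïve). Of the 181 isoforms, 12 were called, 3 higher and 9 lower in primed hESCs, against 0.556% of the 159577 isoforms tested in all genes (0.274% higher and 0.282% lower). Since the genes were chosen on this contrast, nothing is read from that count, here or under other settings, and a called isoform is only a label below. Every one of the 8 genes held at least 1 called isoform. SIL1-211 and SIL1-212 and CCDC144NL-AS1-205 made up those with a higher fraction. The largest change was in TBC1D31-209, with a fraction of 58.7% ± 0.65 (SD, n = 2) in naïve hESCs and 23.1% ± 1.28 (SD, n = 2) in primed hESCs. PMEL-208 came next, at 39.7% ± 3.33 against 8.18% ± 0.06 (SD, n = 2 each). CCDC144NL-AS1-205 lay just inside the threshold, with a dIF of 0.11. At the other side of the threshold, CUL4B-206 had a dIF of -0.062, at 6.50% ± 0.44 against 0.34% ± 0.15 (SD, n = 2 each).

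**Figure D1:**
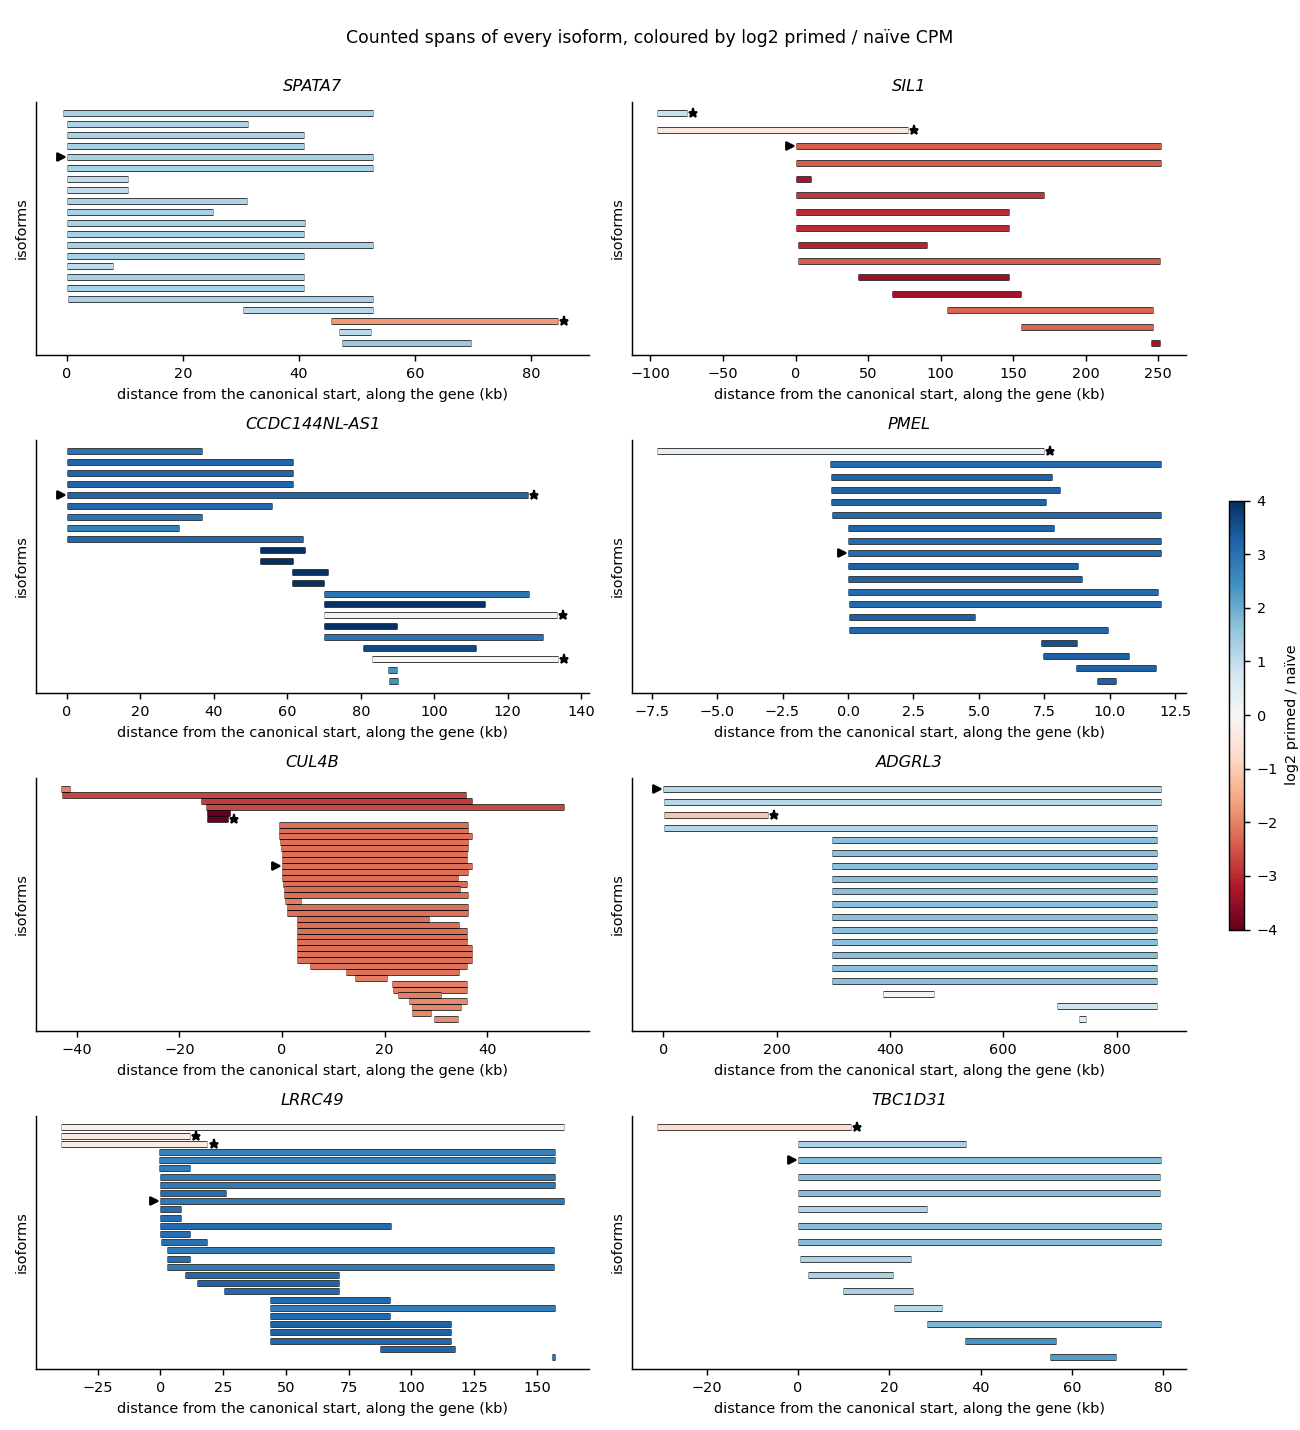
Spans of all isoforms of the 8 genes, in kb from the start of the canonical isoform (triangle; the Ensembl canonical transcript) along the direction of the gene. Bars are coloured by log2 of the mean primed over the mean naïve CPM (TMM, 0.1 CPM added, colours end at 4 in either direction), stars mark the 12 called isoforms, and in most panels the starred bars differ in colour from the bars around the triangle.

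CUL4B had a stretch that was read almost only in naïve hESCs, and no other annotated gene lay in it. CUL4B (ENSG00000158290) lies on the minus strand of chromosome X, from 120505920 to 120604074, and had 40 counted isoforms. CUL4B-206 spans 120571176 to 120575524, upstream of the start of the canonical isoform CUL4B-202 at 120560962. It held 542 and 626 counts in the naïve libraries against 10 and 4 in primed hESCs. The levels were 23.5 and 24.6 CPM against 0.34 and 0.13 CPM, so that the states did not overlap. The body, CUL4B-202, was also higher in naïve hESCs, with 552 and 751 counts against 189 and 153, a log2 ratio of -2.23 (primed over naïve), or -1.59 with plain library size. The stretch changed by more, a log2 ratio of -6.67, or -6.03 with plain library size. CUL4B-231 encloses both, and CUL4B-206 took 58.2% and 53.5% of its alignments in the naïve libraries (Wilson 95% intervals 55.0% to 61.3% and 50.6% to 56.3%). In the primed libraries it took 4.85% and 2.44% (2.66% to 8.70% and 0.95% to 6.10%).

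Part of the naïve alignments joined the upstream stretch of CUL4B to its body. Within CUL4B-231, the counts of CUL4B-206 and CUL4B-202 summed to more than the count of the whole by 163 and 206 in the naïve libraries, so at least that many alignments touched both. These were at least 29.5% and 27.4% of the alignments of CUL4B-202. In the primed libraries the sum was 7 below the whole in each, so the bound was 0 there. CUL4B-231 is annotated with 23 exons. Exon 3, of 80 bases, lies in the stretch, exon 2, of 229 bases, crosses its upstream end, and exon 4 (120560083 to 120560625) lies within the span of CUL4B-202. The called isoform CUL4B-223 lies in the same stretch, with 542 and 623 counts against 10 and 4.

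The starts of the stretch and of the body of CUL4B are shown because the libraries differed between them. RefSeq (GRCh38.p14) places a start 8 bases from that of CUL4B-206 and another at that of CUL4B-202. Each window holds 250 bases before the start and 50 from the start on, 5′ to 3′ along the gene, and capitals mark the 50 bases from the RefSeq start on.
CUL4B upstream start, minus strand, chrX:120575483-120575782: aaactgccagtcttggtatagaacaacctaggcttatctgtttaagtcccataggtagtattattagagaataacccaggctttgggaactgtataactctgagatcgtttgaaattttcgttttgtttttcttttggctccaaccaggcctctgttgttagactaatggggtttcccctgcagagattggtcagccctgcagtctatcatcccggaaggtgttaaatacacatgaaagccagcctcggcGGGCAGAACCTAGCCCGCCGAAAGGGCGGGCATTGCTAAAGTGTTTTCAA
CUL4B body start, minus strand, chrX:120560913-120561212: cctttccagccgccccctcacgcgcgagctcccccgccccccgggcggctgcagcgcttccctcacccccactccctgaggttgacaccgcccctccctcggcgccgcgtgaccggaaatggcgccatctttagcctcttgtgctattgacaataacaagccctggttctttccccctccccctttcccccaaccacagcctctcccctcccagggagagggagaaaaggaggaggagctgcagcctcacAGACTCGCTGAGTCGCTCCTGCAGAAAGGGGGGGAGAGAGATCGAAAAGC
The upstream window had 8 CpG and a GC content of 45.7%, and the body window had 18 CpG and 65.0%. The median over all 35116 RefSeq windows was 14 CpG and 58.7%. The motif GGGCGG, searched on both strands, was found 1 time upstream and 4 times at the body, and it was present in 45.0% of all windows. CCAAT was found 1 time upstream, as in 34.6% of all windows, and TATAAA in neither window, against 11.5% of all windows.

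The far upstream end of CUL4B runs into MCTS1, a translation reinitiation factor on the opposite strand. CUL4B-226, at that end, held 157 and 117 counts in naïve and 44 and 36 in primed hESCs. MCTS1-205, which overlaps it, held 1152 and 1101 against 404 and 384. MCTS1-202, which lies clear of every CUL4B isoform, held 1159 and 1106 against 423 and 405, also higher in the naïve libraries. The stretch of CUL4B-206 is not touched by MCTS1.

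In PMEL, the gene body and the differing stretch moved in opposite directions, and the stretch was the site of the cell cycle kinase gene CDK2. PMEL (ENSG00000185664) lies on the minus strand of chromosome 12, from 55954105 to 55973317. The canonical isoform PMEL-206 held 75 and 111 counts in the naïve libraries against 1031 and 986 in primed hESCs, or 3.25 and 4.36 CPM against 35.1 and 32.2 CPM. The primed level was 8.84-fold the naïve level, or 13.7-fold with plain library size. PMEL-208, the isoform with the largest count, starts further upstream and encloses CDK2-201 (55966830 to 55972789, plus strand) whole. CDK2-201 held 465 and 544 counts in naïve and 115 and 118 in primed hESCs. These were 86.6% and 86.1% of the alignments of PMEL-208 in the naïve libraries against 11.6% and 12.8% in primed hESCs. CDK2-201 starts 788 bases from the start of PMEL-206, on the other strand. A lncRNA annotated there on the strand of PMEL, ENSG00000258554 (55966838 to 55967474), held 395 and 429 counts against 95 and 93. Since strand was not used, its alignments and those of CDK2 cannot be told apart. No alignment had to join CDK2-201 to the PMEL-210 span inside the body, since their counts summed to less than that of PMEL-208 in all 4 libraries.

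In SPATA7 the stretch lay near the 3′ end of PTPN21, a protein tyrosine phosphatase on the opposite strand. SPATA7 (ENSG00000042317) lies on chromosome 14, from 88384924 to 88470350. The body, SPATA7-203, held 39 and 42 counts in naïve and 142 and 113 in primed hESCs, a log2 ratio of 1.35, or 1.99 with plain library size. The called isoform SPATA7-216 held 283 and 355 against 116 and 117. Of these, PTPN21-203 (88467770 to 88469616) took 258 and 323 in the naïve libraries against 9 and 16 in primed hESCs. Its share of SPATA7-216 was 91.2% and 91.0% against 7.76% and 13.7%, the largest change in share among the located stretches.

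PTPN21 did not differ in 1 direction along its whole length. PTPN21-208, which spans the gene, held 313 and 388 counts in naïve and 112 and 116 in primed hESCs. With the alignments of PTPN21-203 taken off, 55 and 65 remained against 103 and 100. PTPN21-206, which lies in the first part of the gene and clear of SPATA7, held 37 and 38 against 53 and 60. PTPN21-209, next to the stretch, held 65 and 85 against 13 and 5. The spans with more counts in naïve hESCs were thus those near the 3′ end of PTPN21.

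SIL1 was lower in its body and higher in its stretch in primed hESCs. SIL1 (ENSG00000120725) lies on the minus strand of chromosome 5, from 138946724 to 139293557. SIL1-202 held 981 and 1005 counts in the naïve libraries against 209 and 248 in primed hESCs, or 42.6 and 39.4 CPM against 7.11 and 8.10 CPM. The naïve level was 5.39-fold the primed level, or 3.46-fold with plain library size. The called isoforms SIL1-211 and SIL1-212 start upstream of the body. SIL1-211 held 386 and 447 counts against 974 and 991, a log2 ratio of 0.93, or 1.57 with plain library size. SIL1-212 runs from the upstream start into the body and held 1196 and 1256 against 1091 and 1131.

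The upstream stretch of SIL1 holds SNHG4, a small nucleolar RNA host gene on the plus strand. SNHG4-202 (139274131 to 139284899) held 342 and 399 counts in naïve and 900 and 894 in primed hESCs, a log2 ratio of 0.97. It took 28.6% and 31.8% of the alignments of SIL1-212 in the naïve libraries against 82.5% and 79.0% in primed hESCs. The RNA-binding protein gene MATR3 starts in the same place on the same strand. The span of MATR3-229 encloses SNHG4-202, so alignments there count for both and cannot be told apart. MATR3-229 held 2583 and 3110 against 3739 and 3547. Its log2 ratio was 0.05, or 0.69 with plain library size. Inside the body, the plus-strand lncRNA ENSG00000249593 had its longest span, 139012650 to 139051203, at 577 and 548 counts against 89 and 76. This is the direction of SIL1 itself, and without strand the 2 genes cannot be told apart there. SIL1-203, clear of that lncRNA, held 498 and 466 against 59 and 55.

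The starts of SIL1 and SNHG4 are shown because the body of SIL1 and its stretch differed in opposite directions. Both are RefSeq windows of the same form as above, with capitals from the RefSeq start on, and the start of SNHG4-202 lies 30 bases from the RefSeq one.
SIL1 body start, minus strand, chr5:139198319-139198618: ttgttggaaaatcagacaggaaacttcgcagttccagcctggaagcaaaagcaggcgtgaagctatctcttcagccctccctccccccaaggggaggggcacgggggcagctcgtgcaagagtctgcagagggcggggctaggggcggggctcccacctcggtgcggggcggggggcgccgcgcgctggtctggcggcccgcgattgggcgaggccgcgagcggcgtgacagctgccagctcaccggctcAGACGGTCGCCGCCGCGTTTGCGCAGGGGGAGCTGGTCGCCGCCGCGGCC
SNHG4 start, plus strand, chr5:139273851-139274150: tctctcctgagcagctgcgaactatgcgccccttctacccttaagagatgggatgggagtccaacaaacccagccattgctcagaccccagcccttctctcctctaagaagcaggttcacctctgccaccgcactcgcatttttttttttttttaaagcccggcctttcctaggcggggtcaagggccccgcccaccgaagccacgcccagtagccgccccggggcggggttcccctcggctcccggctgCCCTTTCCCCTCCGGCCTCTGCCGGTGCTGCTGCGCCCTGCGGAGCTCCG
The SIL1 window had 32 CpG, more than 81.1% of all windows, with 3 matches of GGGCGG and 1 of CCAAT. The SNHG4 window had 19 CpG, 3 matches of GGGCGG and none of CCAAT. RefSeq gives MATR3 this same window. Neither held TATAAA.

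CCDC144NL-AS1 was higher in its body in primed hESCs, while its downstream end was at similar levels in both states. CCDC144NL-AS1 (ENSG00000233098) lies on chromosome 17, from 20868433 to 21002276. CCDC144NL-AS1-205, the canonical isoform, held 115 and 135 counts in the naïve libraries against 1330 and 1545 in primed hESCs. The levels were 4.99 and 5.30 CPM against 45.2 and 50.4 CPM, or 9.30-fold in primed over naïve hESCs. CCDC144NL-AS1-217, which reaches further downstream, held 670 and 839 against 1047 and 1057. Its part past CCDC144NL-AS1-202 held 661 and 817 against 891 and 884, a log2 ratio of -0.04 that turned to 0.60 with plain library size. The end of USP22, a histone deubiquitinase gene on the minus strand, lies there. Within the span of USP22-206 lies a lncRNA on the plus strand, the strand of CCDC144NL-AS1. This lncRNA, ENSG00000263986 (20999747 to 21000323), took 606 and 747 counts against 799 and 777. USP22-206 held 1065 and 1255 against 1256 and 1312. The share of CCDC144NL-AS1-217 on that lncRNA was 90.4% and 89.0% in naïve and 76.3% and 73.5% in primed hESCs. USP22-202, clear of CCDC144NL-AS1, held 443 and 490 against 529 and 546. The body is shared as well. CCDC144NL-202, on the opposite strand at the other end, held 97 and 96 against 687 and 780, and the pseudogene RNASEH1P1 held 8 and 14 against 186 and 175.

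ADGRL3 had an antisense lncRNA in its body that took a large part of its alignments. ADGRL3 (ENSG00000150471) lies on chromosome 4, from 61200326 to 62078335. The canonical isoform ADGRL3-219 held 1106 and 1570 counts in naïve and 3546 and 3690 in primed hESCs. The minus-strand lncRNA ENSG00000289308 (ENST00000692606, 61749388 to 61769649) held 567 and 641 against 2711 and 2504, a log2 ratio of 1.81, or 2.44 with plain library size. It took 51.3% and 40.8% of the alignments of ADGRL3-219 in the naïve libraries against 76.5% and 67.9% in primed hESCs. With these taken off the shorter isoform ADGRL3-213, 187 and 290 counts remained against 598 and 835. The rest of that span was thus higher in primed hESCs too, by a log2 ratio of 1.29, or 1.92 with plain library size.

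By the means of each state, the part of ADGRL3-219 outside ADGRL3-213 differed in the other direction. It held 352 and 639 counts in the naïve libraries against 237 and 351 in primed hESCs, with CPM of 15.3 and 25.1 against 8.06 and 11.5. The log2 ratio was -1.05, or -0.42 with plain library size. The states did not overlap in CPM after TMM. With plain library size they overlapped. Naïve replicate 1, with 352 counts, was the larger library (29584007) than primed replicate 2 (24612621), with 351. The called isoform ADGRL3-212 held 314 and 558 counts against 204 and 286, and its naïve fractions of 19.9% and 25.6% stood against 3.87% and 5.28%.

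LRRC49 was nearly unread in the body in naïve hESCs. LRRC49 (ENSG00000137821) lies on chromosome 15, from 70853239 to 71053658. LRRC49-201 held 5 and 12 counts in the naïve libraries against 101 and 88 in primed hESCs, or 0.22 and 0.47 CPM against 3.43 and 2.87 CPM. The log2 ratio was 3.20, or 3.82 with plain library size. The called isoform LRRC49-212 starts 39448 bases upstream of it, and LRRC49-211 and LRRC49-212 each held 208 and 230 counts in the naïve libraries. In the primed libraries LRRC49-212 held 227 and 189. The part of LRRC49-204 that lies outside LRRC49-203 held 202 and 225 counts against 170 and 129. That was 96.7% and 94.1% of LRRC49-204 in naïve and 61.6% and 58.1% in primed hESCs. LARP6, a gene for an RNA-binding protein of collagen mRNAs on the other strand, shares 919 bases with LRRC49-204, and LARP6-201 held 206 and 239 against 156 and 112.

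A further neighbour, inside the stretch of LRRC49, differed in the direction of the body. THAP10, a gene of the THAP zinc finger family on the minus strand, starts 10 bases from LRRC49-203. THAP10-201 (70881342 to 70892433) held 8 and 3 counts in naïve and 47 and 38 in primed hESCs. It took 3.83% and 1.26% of LRRC49-204 in the naïve libraries against 17.0% and 17.1% in primed hESCs. Both starts of LRRC49 are shown, since the called isoform LRRC49-212 begins at the first and the canonical isoform at the second. Capitals again mark the bases from the RefSeq start on.
LRRC49 upstream start, plus strand, chr15:70853128-70853427: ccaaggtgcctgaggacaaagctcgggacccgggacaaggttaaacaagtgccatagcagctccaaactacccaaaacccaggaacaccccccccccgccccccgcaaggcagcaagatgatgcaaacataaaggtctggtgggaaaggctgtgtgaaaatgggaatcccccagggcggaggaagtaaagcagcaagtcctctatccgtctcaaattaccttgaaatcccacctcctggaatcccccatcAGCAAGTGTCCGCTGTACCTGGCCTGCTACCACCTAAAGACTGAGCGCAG
LRRC49 body start, plus strand, chr15:70892576-70892875: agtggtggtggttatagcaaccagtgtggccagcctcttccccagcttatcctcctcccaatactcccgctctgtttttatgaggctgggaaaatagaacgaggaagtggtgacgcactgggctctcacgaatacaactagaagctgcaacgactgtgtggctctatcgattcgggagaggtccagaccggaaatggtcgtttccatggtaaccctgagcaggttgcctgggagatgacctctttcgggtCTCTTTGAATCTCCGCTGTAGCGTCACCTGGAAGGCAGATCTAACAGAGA
The upstream window had 8 CpG and 2 matches of GGGCGG, and the body window had 12 CpG, no GGGCGG and 1 match of CCAAT. Neither window held TATAAA.

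TBC1D31 resembled LRRC49 in its layout. TBC1D31 (ENSG00000156787) lies on chromosome 8, from 123041968 to 123152153. TBC1D31-201 held 87 and 90 counts in the naïve libraries against 360 and 371 in primed hESCs, or 3.78 and 3.53 CPM against 12.2 and 12.1 CPM. TBC1D31-209 starts upstream of it and held 591 and 542 against 437 and 411. The span of TBC1D31-208 is not nested in that of TBC1D31-209, so only a lower bound could be set for its first part. At least 512 and 470 alignments in naïve and 217 and 173 in primed hESCs touched TBC1D31-209 and missed TBC1D31-208. These were at least 86.6% and 86.7% of TBC1D31-209 against at least 49.7% and 42.1%. DERL1, which encodes a component of endoplasmic reticulum-associated degradation, overlaps the first 335 bases of TBC1D31-209 on the other strand. DERL1-201 held 661 and 627 counts against 354 and 358, and DERL1-206, clear of TBC1D31, held 634 and 597 against 343 and 341. DERL1 thus had more counts in the naïve libraries away from TBC1D31 too. The body of TBC1D31 holds the processed pseudogene HMGB1P19, at 1 and 0 counts against 25 and 25.

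**Figure D2:**
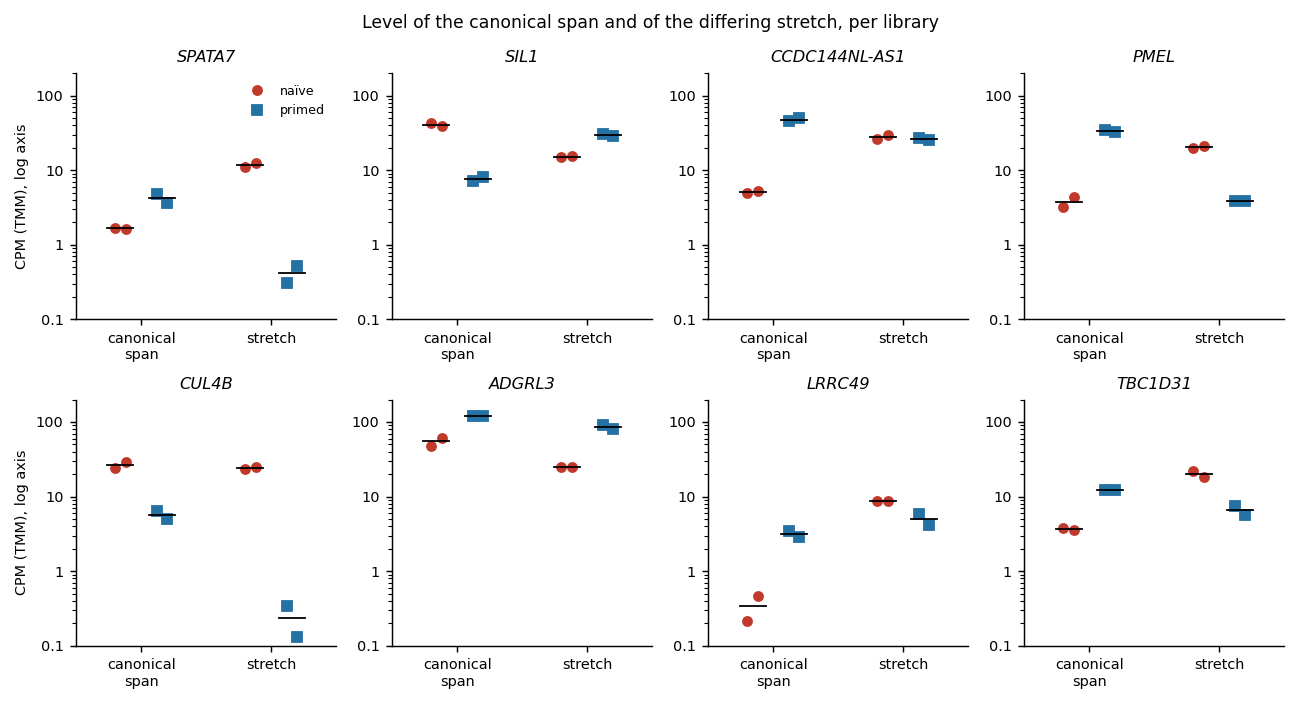
Levels per library of the canonical span and of the located stretch in the 8 genes, in CPM (TMM) on a log axis; circles are naïve, squares primed, and lines the means of 2 libraries. For ADGRL3 the canonical span encloses the stretch, and for TBC1D31 the stretch is a lower bound. SPATA7, SIL1, PMEL and LRRC49 cross between canonical span and stretch, and in CUL4B both are lower in primed hESCs.

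Side by side, the stretches differed in what the annotation holds there. In CUL4B no other gene was annotated in the stretch. In SPATA7, SIL1, CCDC144NL-AS1, PMEL and ADGRL3, and with THAP10-201 also in LRRC49, an isoform of another gene lay wholly inside the outer span. In LRRC49 and TBC1D31 a gene on the other strand overlapped the first bases of the upstream start. The stretch took a smaller share in primed hESCs in SPATA7, CCDC144NL-AS1, PMEL, CUL4B and LRRC49, and a larger one in SIL1 and ADGRL3, and in each of these genes the naïve libraries did not overlap the primed libraries. In TBC1D31 the values are lower bounds, which do not show whether the shares differed. Without TBC1D31, the change from the naïve to the primed mean ran from -80.4 percentage points in SPATA7 to 50.6 in SIL1, and was smallest in CCDC144NL-AS1, at -14.8. How much of each stretch came from the member and how much from its neighbour was not tested. The counts carry no strand, and an alignment counts for every gene it touches. In CCDC144NL-AS1 the lncRNA in the stretch lies on the strand of the member, so strand alone would not part them. These stretches were located after the counts had been seen.

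**Figure D3:**
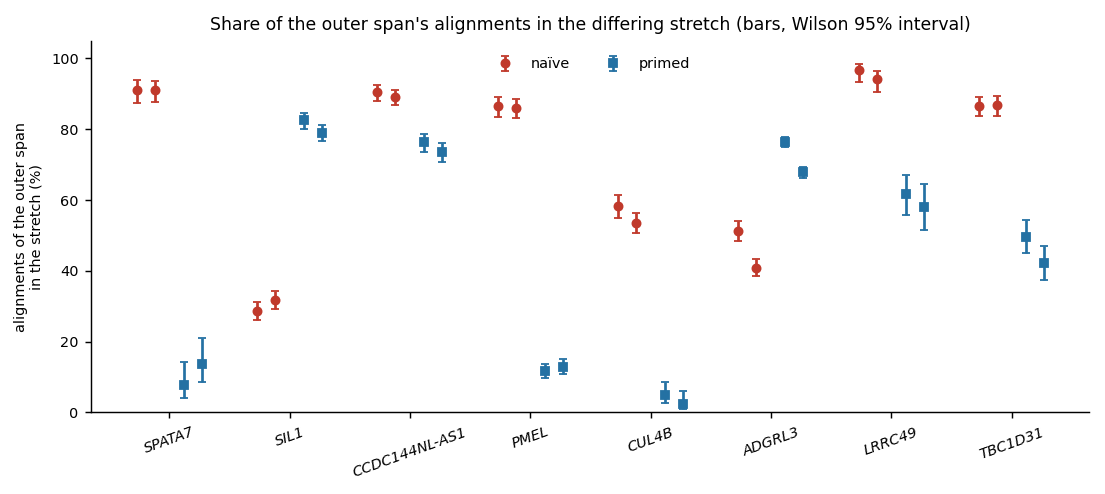
Share of the alignments of the outer span that lay in the located stretch, per library and gene, with Wilson 95% intervals that cover counting error only. Circles are naïve and squares primed, and values for TBC1D31 are lower bounds; the states are furthest apart in SPATA7 and closest in CCDC144NL-AS1.

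A fixed rule on nested spans gave a second, automatic view. For each gene it took the pair of nested spans whose difference changed most as a share of the most counted span, and then the shortest such difference within 90% of that change with the same sign. The rule was run on 10384 genes with at least 50 counts in every library on the most counted span. The median change in size was 9.30 percentage points, and 657 genes, 6.33%, changed by at least 30 points. All 8 members were above 30 points, having been chosen for such a change, from rank 4 for CCDC144NL-AS1 (108 points, above 100 because the difference and the most counted span were not nested) to rank 535 for ADGRL3 (31.7 points). PMEL ranked 17, SPATA7 28, CUL4B 91, TBC1D31 168, LRRC49 338 and SIL1 414. The picked difference held a span of another gene in 6 of the 8 genes, all but CUL4B and TBC1D31. Among the other genes that changed by at least 30 points this was so for 78.9%, and among all others for 65.0%. For CUL4B and TBC1D31 the rule picked spans away from the upstream stretch, whose share was higher in primed hESCs, and not the upstream stretch.

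**Figure D4:**
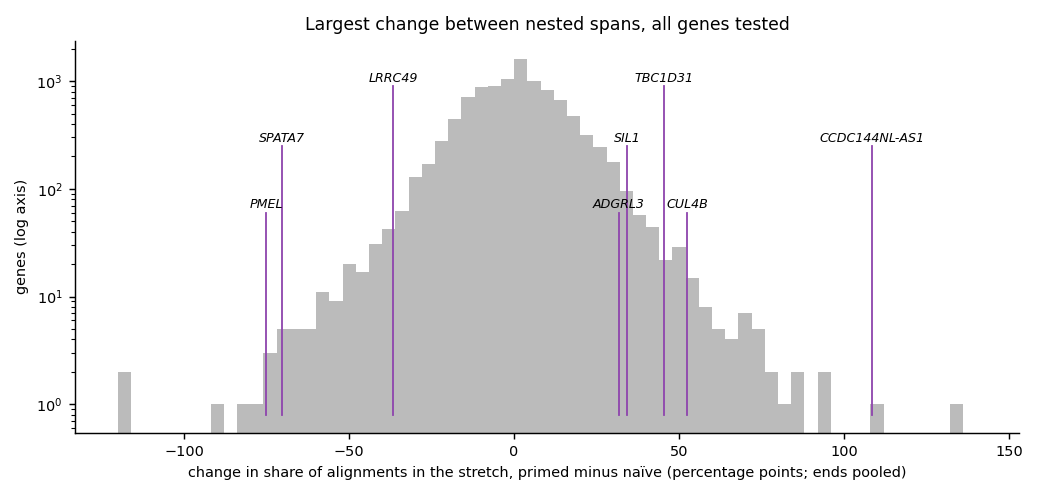
Number of genes (log axis) by the change in share of alignments between nested spans under the fixed rule, primed minus naïve, in percentage points, over 10384 genes, with values past the ends pooled in the end bars. Lines mark the 8 genes, from -75.2 for PMEL to 108 for CCDC144NL-AS1.

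The level of a gene depended on which isoform stood for it. With the most counted isoform, SPATA7 had a log2 ratio of -1.76 and TBC1D31 of -0.73, and with the canonical isoform these were 1.35 and 1.73. LRRC49 went from -0.15 to 3.19 and SIL1 from -0.45 to -2.43. PMEL and CCDC144NL-AS1 went from 0.40 and 0.18 to 3.14 and 3.21. In CUL4B, at -2.72 and -2.23, the direction was the same by both. In ADGRL3 the most counted isoform is the canonical one, at 1.14. By the canonical isoform the order of the log2 ratios was CCDC144NL-AS1, LRRC49, PMEL, TBC1D31, SPATA7, ADGRL3, CUL4B and SIL1.

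Genes that work with the 8 were then examined in 7 lists drawn up by function. Of 78 listed genes that passed the filter, 57 passed an adjusted p under 0.05 by edgeR's quasi-likelihood test, 36 higher and 21 lower in primed hESCs. Of all 27632 genes tested, 70% passed, 37.4% higher and 32.6% lower, and the share of listed genes that passed is close to that background. With plain library size the split was 53 higher and 14 lower, and over all genes it was 56.2% higher and 16.3% lower, so that this scaling moved all genes upward. Of the listed genes, TENM2 had an isoform called for usage, against 3.62% of all genes tested for usage.

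The endoplasmic reticulum chaperones around SIL1 fell in primed hESCs. Of 13 genes tested, 12 fell and 1 rose, with a median log2 fold change of -1.04, against 0.08 over all genes. With plain library size 9 fell and 1 rose. Over all genes 32.6% fell after TMM and 16.3% with plain library size. HSPA5, the HSP70 chaperone that SIL1 serves, was at 518 and 464 CPM in the naïve libraries against 86.5 and 71.4 CPM in primed hESCs, a log2 fold change of -2.64 ± 0.15 (SE, edgeR adjusted p = 1.7e-19). SDF2L1, a partner of the chaperone's J proteins, fell by 2.50 on the log2 scale (adjusted p = 1.2e-16). DNAJC10, a disulfide reductase with a J domain, rose by 1.09 (adjusted p = 4.4e-07). CALR held 73.2% and HSP90B1 67.4% of its counts on a transcript of another gene annotated inside its span.

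The receptors and ligands around ADGRL3 rose. Of 13 genes tested, 10 rose and none fell, with a median of 1.43, where 37.4% of all genes rose and 32.6% fell. With plain library size 11 rose, where 56.2% of all genes rose. FLRT2, a ligand of latrophilins, had 1 count in the naïve libraries together and 127 in the primed libraries, a CPM ratio of 103 with an exact counting interval of 18.1 to 4086. TENM2, a teneurin, rose by 3.97 ± 0.23 on the log2 scale (SE, adjusted p = 2.1e-19). A lncRNA inside its span held 42.9% of its counts, and without it 15 and 22 counts stood against 223 and 289. Another gene inside the span also held 34.8% of the counts of ADGRL1, 74.1% of FLRT1 and 42.0% of UNC5D. In UNC5D that gene, LSM12P1, held 1317 and 1509 counts in naïve against 765 and 697 in primed hESCs. The rest of UNC5D held 337 and 294 against 2251 and 3042. UNC5B, FLRT3 and ADGRL4 did not pass the threshold, with log2 fold changes of -0.26, 0.22 and 0.19. The pseudogene PSAT1P3 held 28.0% of the counts of ADGRL4, and without it 19 and 23 counts stood against 35 and 41. UNC5B-AS1 held 27.7% of the counts of UNC5B, and without it 103 and 106 counts stood against 183 and 177, the other direction.

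The CUL4 ligase genes moved in both directions, as all genes did. Of 17 tested, 5 rose and 5 fell, with a median of -0.05, beside 37.4% of all genes higher and 32.6% lower. With plain library size 12 rose and 2 fell, beside 56.2% of all genes higher and 16.3% lower. DDB2, a substrate receptor for damaged DNA, rose by 2.12 (adjusted p = 4.9e-15), and DET1 rose by 1.21 (adjusted p = 2.7e-05). DDA1, a core subunit with DDB1, fell by 2.34 (adjusted p = 7.8e-17), and its span meets ABHD8, which held 1967 and 1998 counts against 736 and 715. AMBRA1 fell by 1.28 (adjusted p = 1.5e-10), but 98.3% of its counts lay on a processed pseudogene inside its span, as did 98.1% of those of DTL. The rest of AMBRA1 held 994 and 964 counts against 563 and 705. CUL4A, the paralogue of CUL4B, had a log2 fold change of -0.02 (adjusted p = 0.91), or -0.70 with its canonical isoform.

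In both ciliary lists more genes rose than fell. Over all genes tested, 70% passed after TMM, 37.4% higher and 32.6% lower, and nothing is read from list counts near these shares. Of the 12 connecting cilium and transition zone genes beside SPATA7, 6 rose and 1 fell after TMM. With plain library size 10 rose and none fell, where 56.2% of all genes rose and 16.3% fell. TMEM67 rose by 1.43 and AHI1 by 1.38, both of them transition zone or ciliary base proteins, and IQCB1 fell by 0.75. Of the 11 centriolar satellite genes beside TBC1D31, 6 rose and 1 fell, and 10 rose and 1 fell with plain library size. KIAA0753, with 33.0% of its counts on another gene inside its span, rose by 1.40, MIB1, a ubiquitin ligase, by 1.33, and PJA2, also a ubiquitin ligase, fell by 1.35. In the polyglutamylase complex of LRRC49, 3 of 5 genes rose, among them TTLL1, its catalytic subunit, by 2.29 (adjusted p = 2.2e-10) and CSTPP1 by 0.89, and 4 rose with plain library size.

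Most melanocyte genes were near or under the filter where PMEL was read. Of 11 listed genes, TYR, TYRP1, DCT and SLC45A2 had at most 4 counts in any library and were not tested. Of the 7 tested, 5 rose and 2 fell in primed hESCs, beside 37.4% of all genes higher and 32.6% lower. Without primed replicate 2, 3 of the list passed, and without primed replicate 1, 4 passed. SLC24A5, a melanosomal cation exchanger, had 2 counts in the naïve libraries together and 319 in the primed libraries, a CPM ratio of 129 with an exact counting interval of 35.4 to 1069. MLANA rose by 2.60 from 2 and 3 counts to 14 and 25. MITF, the melanocyte transcription factor, fell by 1.52. BACE2, a protease that cleaves PMEL, fell by 2.38, and the lncRNA PLAC4 inside its span held 232 and 337 counts in naïve against 4 and 1 in primed hESCs. The rest of BACE2 held 76 and 80 counts against 73 and 93.

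**Figure D5:**
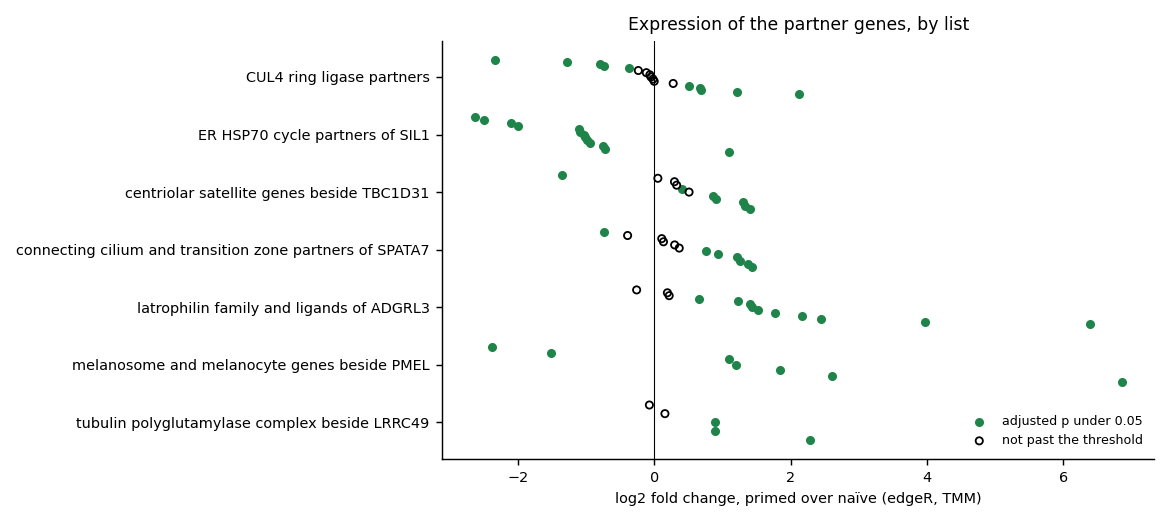
Log2 fold changes (primed over naïve, edgeR with TMM) of the partner genes tested, 1 point a gene, by list. Filled points passed an adjusted p under 0.05; the chaperone list around SIL1 lies mostly left of 0 and the latrophilin list mostly right.

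Marker genes checked the labels. All 8 primed markers rose in primed hESCs, and all 8 naïve markers fell after TMM, 7 with plain library size. KLF17 was the exception, at -0.41 after TMM and 0.23 with plain library size, and 99.2% of its counts lay on a processed pseudogene inside its span. The rest of KLF17 held 31 and 37 counts in naïve and 2 and 5 in primed hESCs. A lncRNA inside the span also held 92.0% of the counts of DNMT3L, 92.0% of those of THY1 and 68.7% of those of SALL2. Without it, each of these markers differed in the same direction as before. Of 8 trophoblast markers, 7 were higher in naïve hESCs, and KRT7 did not pass, at a log2 fold change of 0.37 that passed at 1.00 with plain library size. KRT7-AS held 78.0% of the counts of KRT7, and the rest held 19 and 23 counts in naïve against 11 and 13 in primed hESCs, the other direction. The trophoblast list summed to 2198 and 2520 CPM in the naïve libraries against 5.17 and 4.57 CPM in primed hESCs, where VGLL1 and XAGE2 were at 0. Most of the naïve sum came from CGA, at 1551 and 1866 CPM, and CGB5, at 405 and 401 CPM. GATA3 was at 42.4 and 45.2 CPM there. The part of such cells in the differences between the 8 genes was not tested, and in bulk libraries fewer cells of a type and less RNA per cell cannot be told apart.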

How the data were processed

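Nanopore cDNA libraries of naïve and primed hESCs, 2 per state, were examined. The authors aligned reads to GRCh38 with minimap2 in spliced mode and counted alignments per Ensembl release 105 transcript with featureCounts 2.0.0. The deposited values are raw counts over whole transcript spans, unstranded, with multi-overlap and multi-mapping alignments counted each time and replicates not pooled.

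Names and genes came from GENCODE release 44 through the transcript identifier (242542 of 244825, 97.9% of them with the same coordinates). The 2283 others held 1.0% of counts and were left out. The filter kept isoforms that reached 10 counts in 2 or more libraries, and these were tested with edgeR 4.0.16 in R 4.3.3 (TMM, quasi-likelihood fit, diffSpliceDGE), adjusted by Benjamini-Hochberg over all isoforms, and called at an adjusted p of less than 0.05 with a dIF of more than 0.1 in size. The isoform fraction is the count per exonic base over the sum for the gene. Gene expression used the isoform with the largest mean count, in edgeR's quasi-likelihood test. The SE of a log2 fold change was derived from its size and the F statistic of that test, which reports none. Tests were two-sided. The fits were tested on simulated data. A check of the subtraction of nested spans on drawn alignments could only hold, since it follows from the counting itself. Stretches, shares and motifs were computed in Python 3.11.15 with pandas 2.3.3 and scipy 1.17.1, which gave the intervals. Intervals cover counting error only, as the reads carry no molecular identifiers.

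Start windows came from the RefSeq table for GRCh38.p14, which held 5 of the 8 genes. Capitals and motifs were set by position and letters alone.

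The members and lists were chosen with earlier results of these data known. The genes named are the 8 with the isoforms that bound each stretch, are most counted or changed most, up to 3 overlapping genes a stretch, and up to 2 rises and 2 falls a list. Genes outside this rule that are named for overlaps, markers or missing calls, the hand-located stretches and the canonical isoform as the gene count were chosen after values were seen. Alternatives were DESeq2 1.42.0, library size, no filter or a filter of 50 counts, other dIF thresholds, fractions without length, isoforms with identical counts collapsed, summed isoforms, a replicate block, other stretch rules and each library left out. Over 27632 genes, the difference between replicates 1 and 2 correlated at 0.06 between the states, so the numbers were not taken to pair the libraries.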

Additional observations from a re-analysis of the deposited data

How the results depend on the processing

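The isoforms called in the 8 genes numbered 12 under library size, size factors of the DESeq2 type, no filter, the filter of 50 counts, collapsed isoforms and the DESeq2 likelihood ratio test, 77 with no dIF threshold and 7 at a dIF of 0.2, and 10 to 12 with a library left out. Over all genes, the calls of 888 became 6809 and 303 at those thresholds, 1395 by DESeq2 and 374 to 462 with a library left out. With isoform fractions computed without length, 10 isoforms of the 8 genes were called, 2 higher and 8 lower, and 616 of all isoforms. With the replicate number as a block, 12 isoforms of the 8 genes, 789 of all isoforms, 19689 genes and 59 partner genes were called. The block changed no count by over 1.5 times. With a library left out, 13609 to 16836 genes and 52 to 55 partner genes were called; the state left with 1 library is then assumed to vary like the other.

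The share changes under the fixed rule (percentage points, primed minus naïve) were -70.3 for SPATA7, 34.2 for SIL1, 108 for CCDC144NL-AS1, -75.2 for PMEL, 52.4 for CUL4B, 31.7 for ADGRL3, -36.6 for LRRC49 and 45.4 for TBC1D31. With the most counted transcript of another gene inside taken off, they were 10.1 for SPATA7, -16.4 for SIL1, 83.0 for CCDC144NL-AS1, -1.07 for PMEL, 5.61 for ADGRL3 and -51.1 for LRRC49, and CUL4B and TBC1D31 gave no value, having none. Over the outer span of the ring they were -6.01 for CCDC144NL-AS1, 7.36 for ADGRL3, -27.1 for LRRC49 and -13.7 for TBC1D31. The ring with the largest change gave 119 for CCDC144NL-AS1 and 50.4 for TBC1D31. The stretches located by hand gave -80.4, 50.6, -14.8, -52.2, 26.1 and -40.8 for SPATA7, SIL1, CCDC144NL-AS1, CUL4B, ADGRL3 and TBC1D31. The value for TBC1D31 is a difference of lower bounds. Between the fixed rule and these stretches the sign of the value differed in CCDC144NL-AS1, CUL4B and TBC1D31. There the fixed rule took spans of the body and the stretches lay elsewhere. In TBC1D31 the lower bounds do not show the sign of the change. For these and the other turns the cause was not tested beyond these subtractions.

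Gene levels (log2) with plain library size were -1.12 for SPATA7, 0.19 for SIL1, 0.81 for CCDC144NL-AS1, 1.04 for PMEL, -2.08 for CUL4B, 1.77 for ADGRL3, 0.49 for LRRC49 and -0.087 for TBC1D31. Summed over isoforms they were 0.86, -1.90, 2.17, 2.82, -2.33, 1.49, 1.33 and 1.07 in that order. With the canonical isoform, chosen after seeing the data, they were 1.35, -2.43, 3.21, 3.14 and -2.23 for SPATA7, SIL1, CCDC144NL-AS1, PMEL and CUL4B, 3.19 for LRRC49 and 1.73 for TBC1D31. DESeq2 size factors gave -0.50 for SIL1. With a library left out, SIL1 ran from -0.49 to -0.41, ADGRL3 from 0.97 to 1.33 and LRRC49 from -0.35 to 0.025, the last without primed replicate 2, where its direction turned. Low counts limit the primed end of CUL4B and SPATA7 and the naïve body of LRRC49.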
